A study of Mus musculus with 3 samples.

Results

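The transcripts of 9 receptors through which blood-forming cells sense growth factors and cytokines were followed in mouse bone marrow nucleated cells (BMNCs) after acute irradiation with or without cannabidiol (CBD). They were taken by gene symbol, 9 of the 56980 genes in the count matrices, and all 9 had UMIs (unique molecular identifiers, each marking 1 captured transcript) in each library. All mice were C57BL/6, male by the methods of the study, and all marrow was flushed from femurs at 14 days post-irradiation (DPI); an age for these animals is not given in the sources used here. Control mice were not irradiated, and whether they were given solvent is not given in the sources used here. IR mice received 6 Gy of gamma-irradiation and the solvent, soybean oil with 2% DMSO. IR+CBD mice received 6 Gy and CBD at 50 mg/kg in that solvent by 4 intraperitoneal injections, 12 h and 0.5 h before and 12 h and 24 h after irradiation. In each group, Lin-Kit+, Lin-Kit- and Lin+ cells of 3 mice were sorted and remixed at 5:4:1, and 1 droplet library was made from the pool. The proportions of cells therefore follow the remix as well as the marrow, cells sorted on Kit protein were enriched in all groups alike, and with 1 library per group no difference has a replicate check and no p-value can be given.

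Cytokine receptors pass a signal from outside the cell to kinases inside it. Kit, Flt3 and Csf1r are related receptor tyrosine kinases for stem cell factor, Flt3 ligand and macrophage colony-stimulating factor, and they act in stem and progenitor cells, in lymphoid and dendritic progenitors and in monocytes. Epor, Csf3r, Csf2ra, Il3ra, Il5ra and Il7r belong to the family that has no kinase of its own and signals through Jak and Stat proteins. Csf2ra, Il3ra and Il5ra are the ligand-binding chains for GM-CSF, IL-3 and IL-5 and share a common beta chain. Each lineage of the marrow is known by the receptors it keeps: erythroid progenitors by Epor, neutrophils by Csf3r, B lymphoid progenitors by Il7r and eosinophils by Il5ra.

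Barcodes were kept as cells at 200 or more genes and at most 5% mitochondrial UMIs, which left 10674 Control, 10345 IR and 10273 IR+CBD cells with 194839224, 202361682 and 173466089 UMIs and a median of 12479.5, 14211 and 12502 UMIs per cell. Levels are given as UMIs of the gene per 1000000 UMIs summed over cells (CPM). Cells were placed by raw UMIs in 8 gates named for the genes that define them: Mpo (5 or more UMIs), Klf1 (2), Cd79a (2), Retnlg (5), Siglech (3), Pf4 (2) with Itga2b (1), Mcpt8 (2) and Cd34 (1) with Adgrl4 (1). The gates overlap, since 25.3%, 21.6% and 22.2% of Control, IR and IR+CBD cells were in 2 or more of them, and 94.9% to 96.3% of the cells of the Mcpt8 gate were also in another gate. Values in different gates of a library therefore share cells. Markers of the erythroid, B cell, neutrophil, plasmacytoid dendritic, megakaryocyte and basophil lineages (4 genes each) were highest in the Klf1, Cd79a, Retnlg, Siglech, Pf4 with Itga2b and Mcpt8 gates, respectively, in every library. The granule genes Elane, Prtn3, Ctsg and Ms4a3 were highest in the Mpo gate in IR and IR+CBD, whereas in Control only 2 of the 4 were. The Cd34 with Adgrl4 gate went against a stem cell label, because only 2 of the 4 stem cell markers Hlf, Mecom, Procr and Meis1 were highest in it and their sum was higher in the Pf4 with Itga2b gate (571 against 280 CPM in Control), so it is named by its genes. The endothelial markers Cdh5, Kdr, Emcn and Plvap summed to 7.06, 3.02 and 3.31 CPM in it. Between 35 and 51 cell barcodes were shared by each pair of libraries. Intervals below are exact 95% intervals (Poisson for a level, conditional binomial for a ratio) and cover counting error only, not the spread between mice.

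Promoters are shown for the receptors by which the erythroid, eosinophil and neutrophil lineages are known, so that the letters in front of the gene can be read beside the values that follow. RefSeq windows of the GRCm38.p6 build (250 bases directly before the start) were found for 8 of the 9 receptors; Csf1r had none. The letters AGATAA, the core read by GATA factors, and GAGGAA, a core read by ETS factors such as PU.1, were searched on both strands (reverse letters TTATCT and TTCCTC), and matches are in capitals. AGATAA was present in the windows of Epor and Il5ra and in 9.99% of the 32851 promoter windows searched. GAGGAA was present in those of Kit, Csf3r and Csf2ra and in 23.3% of all windows. A match describes letters in the window and not a bound site. The Epor window lies at chr9:21963577-21963826 (minus strand), with its match 54 bases before the start and on the opposite strand; the Il5ra window at chr6:106749038-106749287 (minus strand), with its match 74 bases before the start; and the Csf3r window at chr4:126024409-126024658 (plus strand), with its match 86 bases before the start.
Epor: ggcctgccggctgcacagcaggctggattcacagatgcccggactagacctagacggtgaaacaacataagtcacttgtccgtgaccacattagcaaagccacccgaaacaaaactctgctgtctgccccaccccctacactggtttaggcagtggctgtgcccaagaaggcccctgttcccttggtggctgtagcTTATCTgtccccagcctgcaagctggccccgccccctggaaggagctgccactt
Il5ra: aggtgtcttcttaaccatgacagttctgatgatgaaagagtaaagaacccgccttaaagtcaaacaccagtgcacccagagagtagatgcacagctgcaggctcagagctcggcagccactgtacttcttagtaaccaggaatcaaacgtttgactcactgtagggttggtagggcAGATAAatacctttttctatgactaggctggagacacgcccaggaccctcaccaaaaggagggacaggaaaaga
Csf3r: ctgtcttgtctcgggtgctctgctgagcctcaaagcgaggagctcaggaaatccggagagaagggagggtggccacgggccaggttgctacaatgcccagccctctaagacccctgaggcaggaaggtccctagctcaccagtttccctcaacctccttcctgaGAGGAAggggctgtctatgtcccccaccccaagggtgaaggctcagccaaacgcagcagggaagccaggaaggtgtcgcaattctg

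Over all cells, Epor was the 1 receptor of 9 that was more than 1.5-fold higher after irradiation and Flt3 the 1 that was more than 1.5-fold lower. Of the 20226 genes with at least 50 UMIs in the Control and IR libraries together, 5.25% were past 1.5-fold higher and 9.82% past 1.5-fold lower in IR. The median ratio of IR over Control was 0.84 for the 9 receptors and 0.963 for all genes, and 1 receptor in each direction is no result about the 9 as a group. Epor was at 10.4 CPM in Control against 28.0 with IR and 24.7 with IR+CBD (values are given in this order throughout), an IR/Control ratio of 2.70 (2.57 to 2.84). Flt3 was at 41.8, 14.9 and 17.8 CPM, a ratio of 0.36 (0.34 to 0.37). The remaining 7 receptors differed less: Il7r had the lowest of their ratios at 0.72 (0.69 to 0.74) and Il3ra the highest at 1.03 (0.98 to 1.07). Kit, the receptor used for the sort, was at 64.3, 58.7 and 65.6 CPM, and Csf2ra at 55.9, 52.0 and 51.7 CPM. Csf3r was at 40.4, 33.6 and 39.1 CPM, lowest in IR, and Csf1r at 18.9, 15.9 and 13.6 CPM, lowest in IR+CBD. Il5ra was rare, with 268, 233 and 186 UMIs in all.

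No receptor differed by 1.5-fold between IR+CBD and IR over all cells (0 of 9 higher and 0 of 9 lower), against 2.82% higher and 2.85% lower of 19867 genes. Flt3 had an IR+CBD/IR ratio of 1.19 (lower limit 1.13), Csf3r of 1.16 (1.12 to 1.20) and Kit of 1.12 (1.09 to 1.15), whereas Csf1r had 0.86 (0.81 to 0.90) and Epor 0.88 (0.85 to 0.92). Against Control, IR+CBD had Epor 2.39-fold higher and Flt3 at 0.42 of its level, again 1 receptor in each direction, with 4.01% and 8.44% of 19998 genes past the same limits. These comparisons share the IR or the Control library and are not independent of each other.

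**Figure D1:**
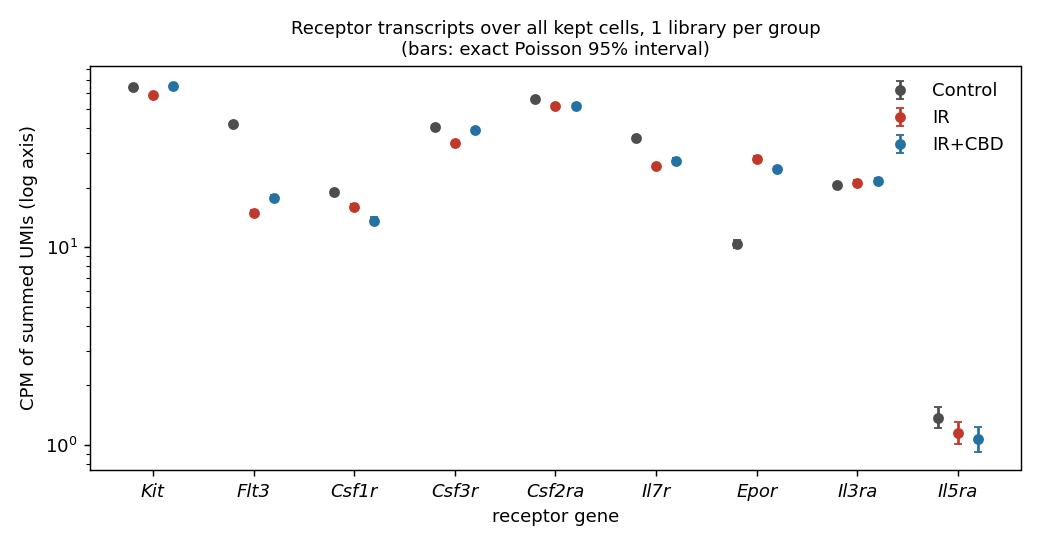
CPM of the 9 receptors summed over all kept cells of each library on a log axis, with points for Control, IR and IR+CBD and bars for the exact Poisson 95% interval. Epor stands at 10.4 CPM in Control against 28.0 and 24.7 in the irradiated libraries, and Flt3 at 41.8 against 14.9 and 17.8.

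The gates gave 72 pairs of a receptor and a gate, of which 65 had 50 or more UMIs for IR over Control. Of these pairs, 8 were past 1.5-fold higher and 10 past 1.5-fold lower in IR, which is 5 gates each for Epor (higher) and Flt3 (lower), 3 for Il7r (lower), 2 for Il5ra (higher) and 1 each for Csf2ra (higher), Csf3r and Kit (lower). Over all genes, 4.50% of 104984 gene-gate pairs were higher and 6.05% lower. For IR+CBD over IR, 2 of 59 pairs were higher and 2 lower, with 2.71% and 3.12% of 99770 pairs over all genes. For IR+CBD over Control, 5 of 64 pairs were higher and 11 lower, with 3.36% and 5.31% of 103869 pairs.

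**Figure D2:**
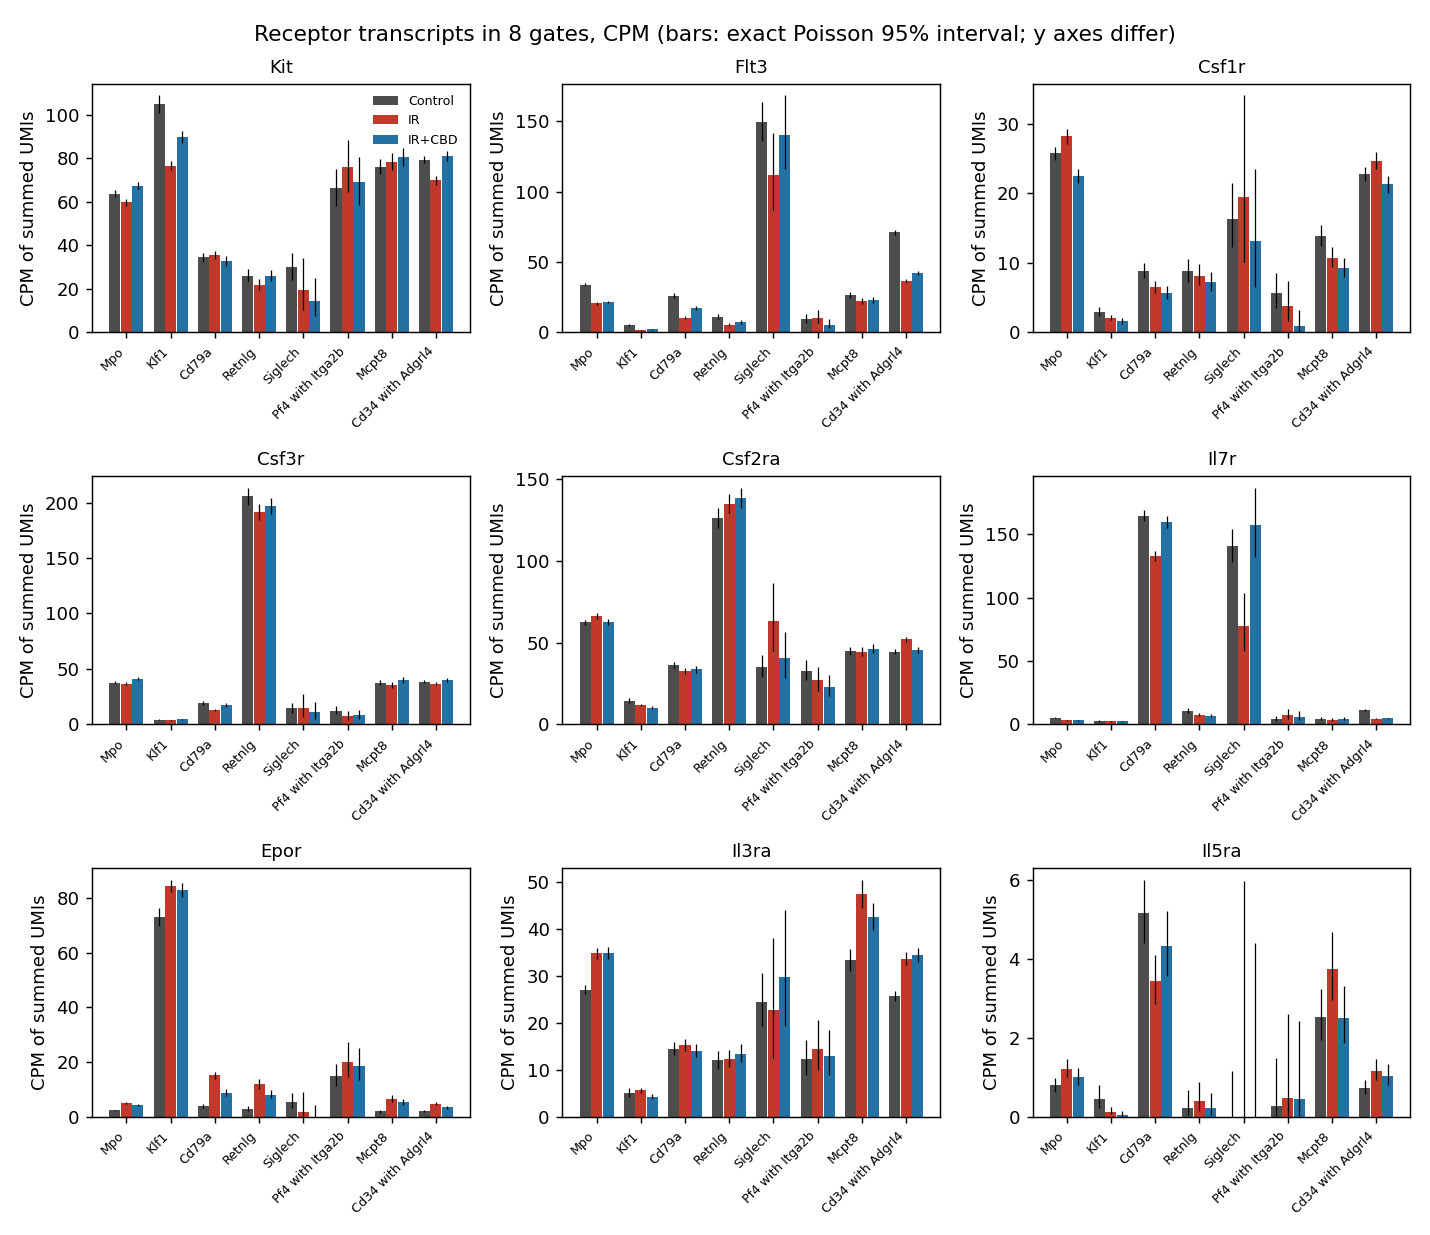
CPM of each receptor in the 8 gates for Control, IR and IR+CBD, with bars for the exact Poisson 95% interval and a y axis of its own for each receptor. Csf3r and Csf2ra are highest in the Retnlg gate, Epor in the Klf1 gate, Il7r in the Cd79a gate and Flt3 in the Siglech gate in all 3 libraries.

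Among the receptor tyrosine kinases, Kit was spread over the progenitor gates. In Control it was highest in the Klf1 gate at 104.7 CPM, apart from the next gate by its interval, and it was 76.6 there in IR and 89.6 in IR+CBD. In the Cd34 with Adgrl4 gate it was 79.3, 69.9 and 80.9 CPM, and in the Mpo gate 63.7, 59.7 and 67.4 CPM. In each of these 3 gates IR was the lowest library. In the Retnlg gate of maturing neutrophils Kit was at 26.1, 21.9 and 25.9 CPM, well below the progenitor gates. In IR the Mcpt8, Klf1, Pf4 with Itga2b and Cd34 with Adgrl4 gates, at 69.9 to 78.3 CPM, had neighbouring intervals that overlapped, so the order seen in Control was not kept apart. Among the gates whose interval excluded 1, Kit differed most between IR and Control in Klf1 cells, with a ratio of 0.73 (0.70 to 0.77). The IR+CBD/IR ratio was 1.17 (1.12 to 1.22) there and 1.18 (1.02 to 1.37) in the Retnlg gate. In cells of the Retnlg gate alone Kit was at only 6.23, 5.45 and 6.29 CPM, and the ratio was 1.155 (0.78 to 1.72). In cells of the Cd79a gate alone Kit was at 19.9, 21.2 and 12.6 CPM. IR+CBD was past 1.5-fold lower there than IR (0.59, 0.50 to 0.70) and than Control (0.63, 0.53 to 0.75). In the cells of the Mpo gate that were in no other gate, Kit was at 37.6, 42.5 and 49.98 CPM, so Control and not IR was the lowest (IR/Control 1.13, 1.03 to 1.24). Klf1 cells with a UMI of Gata2, a factor of early progenitors that erythroid cells lose as they mature, made up 55.8%, 64.1% and 58.9% of the gate. Kit was at 122.4, 86.9 and 100.8 CPM in those cells and at 80.9, 55.1 and 71.7 CPM in Klf1 cells without Gata2, so IR was lowest on both sides of the division, with ratios to Control of 0.71 and 0.68. Kit in the Siglech gate, past the limit at 0.65, rested on 95, 12 and 12 UMIs and its interval (0.33 to 1.19) held 1.

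Flt3, the receptor of multipotent and lymphoid progenitors and of dendritic cells, was lower in IR than in Control in 7 of 8 whole gates. It was highest in the Siglech gate of plasmacytoid dendritic cells, at 149.6, 112.0 and 140.7 CPM, on 273, 46 and 79 cells. The Cd34 with Adgrl4 gate came next at 71.1, 36.4 and 42.2 CPM, an IR/Control ratio of 0.51 (0.49 to 0.54). The Mpo gate had 33.7, 20.6 and 21.5 CPM and the Cd79a gate 25.8, 10.1 and 17.2 CPM. Control was the highest library in each of these gates and IR the lowest. In cells that were in the Mpo gate alone, however, Flt3 was at only 5.93, 8.30 and 6.75 CPM and the direction turned, with an IR/Control ratio of 1.40 (1.12 to 1.75), so the difference in the whole Mpo gate was not found outside the cells it shares with other gates. In cells of the Cd34 with Adgrl4 gate alone (217.4, 139.1 and 130.3 CPM) and of the Cd79a gate alone (13.3, 5.61 and 9.89 CPM) IR stayed past 1.5-fold lower, at 0.64 (0.58 to 0.70) and 0.42 (0.34 to 0.52). The whole Klf1 and Retnlg gates were also past 1.5-fold lower in IR. Their cells in no other gate held 16, 27 and 13 Flt3 UMIs for Klf1 and 17, 15 and 2 for Retnlg, too few to compare. Among the 8 whole gates the exception was the Pf4 with Itga2b gate, with 9.29, 10.3 and 5.20 CPM on 35, 22 and 12 UMIs. In IR+CBD, Flt3 was above IR in all 7 gates with enough UMIs, by 1.04 to 1.70, and past 1.5-fold only in the Cd79a gate (1.70, 1.48 to 1.96). In cells of 1 gate alone it was 1.76 (1.38 to 2.26) for Cd79a, 0.94 (0.83 to 1.05) for Cd34 with Adgrl4 and 0.81 (0.66 to 1.00) for Mpo. Cells of the Cd79a gate with a UMI of Vpreb1, the surrogate light chain of early B cells, had Flt3 at 22.6, 8.60 and 20.4 CPM, and those without it at 28.7, 11.3 and 15.6 CPM.

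The Cd34 with Adgrl4 gate held 82.8%, 80.8% and 76.2% of all Flt3 UMIs of the libraries when each cell was counted once, and its make-up differed. Cells with a UMI of Dntt, the DNA polymerase that adds nucleotides at antigen receptor joints and marks lymphoid progenitors, made up 28.5%, 11.1% and 10.6% of the gate. In these cells Flt3 was at 198.9, 141.8 and 177.6 CPM, an IR/Control ratio of 0.71 (0.67 to 0.76) and an IR+CBD/IR ratio of 1.252 (1.15 to 1.37). In the cells without Dntt it was at 33.3, 23.3 and 26.7 CPM, with ratios of 0.70 (0.66 to 0.75) and 1.15 (1.06 to 1.24). Flt3 was thus lower in IR on both sides of the division, but past 1.5-fold on neither, while the undivided gate, in which the Dntt cells were fewer after irradiation, was past it. Il7r was at 37.8, 19.1 and 26.7 CPM with Dntt (IR/Control 0.50, 0.42 to 0.60) and at 3.36, 2.81 and 2.14 CPM without (0.84, 0.68 to 1.02). Kit was at 76.6, 60.3 and 83.5 CPM with Dntt and at 80.2, 71.0 and 80.6 CPM without, so the sides differed by far less than for Flt3, with IR the lowest library on both. Its IR+CBD/IR ratio was 1.39 (1.22 to 1.58) with Dntt and 1.13 (1.09 to 1.18) without. The division was made after the values of the whole gate had been seen.

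**Figure D3:**
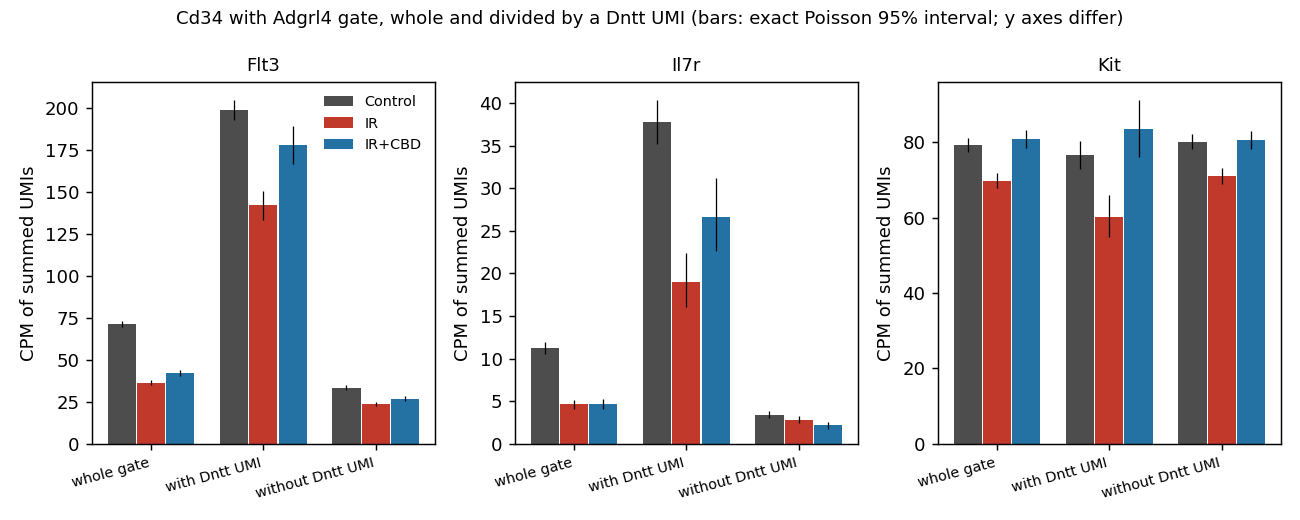
CPM of Flt3, Il7r and Kit in the Cd34 with Adgrl4 gate, whole and divided into cells with and without a Dntt UMI, for Control, IR and IR+CBD, with bars for the exact Poisson 95% interval and separate y axes. Flt3 is at 71.1, 36.4 and 42.2 CPM in the whole gate but at 198.9, 141.8 and 177.6 in the cells with Dntt.

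Detection of Flt3 in single cells was also highest in Control. In the Cd34 with Adgrl4 gate 54.3%, 38.7% and 38.5% of cells had a Flt3 UMI at median depths of 27462.5, 32784.5 and 26468.5 UMIs. After each cell was thinned to 2000 UMIs, with 401, 296 and 452 shallower cells of the libraries left out, the shares were 16.1%, 6.26% and 8.33%, in the order of the CPM. In the Retnlg gate of neutrophils, a lineage without a known use of Flt3, 5.78%, 2.60% and 2.63% of cells had a UMI at median depths of 8769.5, 9707.5 and 8823, and 1.30%, 0.374% and 0.167% after thinning. The shares in the Cd34 with Adgrl4 gate were therefore above that background in each library. Flt3 and Il7r met in the same cells most often in Control. Among cells of this gate thinned to 5000 UMIs, an Il7r UMI was found in 13.3% of 886 Control cells with Flt3 and in 2.3% of those without. The same shares were 3.20% of 281 cells and 1.38% in IR, and 4.67% of 321 cells and 1.46% in IR+CBD. Kit, in contrast, was found in 33.0% of the Control cells with Flt3 and 32.4% of those without.

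Csf1r, which maintains monocytes and macrophages, was highest in the Mpo gate at 25.7, 28.2 and 22.5 CPM among the 8 gates. In that gate 2654 of its 2859 Control UMIs lay in cells with a UMI of F13a1, a coagulation factor gene of the monocyte lineage, and it was at 33.5, 36.4 and 30.3 CPM against 6.45, 4.32 and 2.96 CPM in the cells without. Its level was higher still in cells gated on Ly6c2 (2 or more UMIs) with Ccr2 (1), the inflammatory monocyte pair, at 45.8, 46.4 and 42.9 CPM. No whole gate was past 1.5-fold for IR over Control or for IR+CBD over IR. In cells of the Cd79a gate alone, however, IR/Control was 0.54 (0.34 to 0.86), on 53 and 32 UMIs. It was 0.54 (0.30 to 0.93) for Cd34 with Adgrl4 alone, on 92 and 16 UMIs, and 1.275 (1.15 to 1.41) for Mpo alone. Csf1r was lower in IR+CBD than in Control in all 7 gates with enough UMIs and past 1.5-fold in 3, with ratios of 0.54 in Klf1, 0.63 in Cd79a and 0.66 in Mcpt8. In cells of 1 gate alone, Control and IR+CBD had 15 and 15 UMIs for Klf1 and 3 and 2 for Mcpt8, too few to compare. The ratio was 0.64 (0.39 to 1.04) for Cd79a alone, on 53 and 27 UMIs, and 0.86 (0.77 to 0.96) for Mpo alone. For Cd34 with Adgrl4 alone it was 0.40 (0.20 to 0.74), on 92 and 12 UMIs. IR+CBD was also below IR in all 6 gates with enough UMIs, with ratios of 0.75 to 0.88 and intervals under 1 in 3 of them. Among Mpo-gate cells thinned to 5000 UMIs, Csf3r was found in 14.2%, 15.3% and 16.6% of the cells with Csf1r and in 17.3%, 16.9% and 18.7% of the cells without. The share with Csf3r, the granulocyte receptor, was thus lower among the cells with Csf1r in all 3 libraries, a difference that was not tested.

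Of the receptors that signal through Jak kinases, Csf3r and Csf2ra were those of the neutrophils. Csf3r, the receptor of G-CSF, was at 205.5, 191.2 and 196.8 CPM in the Retnlg gate. The next gates, Mpo, Cd34 with Adgrl4 and Mcpt8, lay at 35.6 to 41.4 CPM in all libraries with intervals that overlapped their neighbours. A Csf3r UMI was found in 80.7%, 80.4% and 78.1% of Retnlg-gate cells, and in 41.6%, 35.6% and 37.0% after thinning to 2000 UMIs. In the Cd79a gate of B cells, at median depths of 4042, 3851.5 and 3416.5 UMIs, it was found in 7.26%, 5.38% and 5.93%, and in 1.87%, 1.02% and 1.79% after thinning. The ratio of IR over Control in the Retnlg gate was 0.93 (0.88 to 0.98), and that of IR+CBD over IR was 1.03 (0.98 to 1.08), so maturing neutrophils differed little. IR+CBD was above IR in all 6 gates with enough UMIs, by 1.03 to 1.35, the highest in the Cd79a gate. In cells of 1 gate alone this direction was not kept throughout. The ratio was 0.99 (0.94 to 1.05) for Retnlg, 0.93 (0.72 to 1.20) for Cd34 with Adgrl4 and 1.07 (0.98 to 1.17) for Mpo. For the Cd79a gate alone it was 1.68 (1.11 to 2.55), at 2.07 CPM in IR and 3.47 in IR+CBD on 45 and 54 UMIs. Csf2ra, the alpha chain for GM-CSF, was at 126.1, 134.8 and 138.5 CPM in the Retnlg gate and 62.3, 66.2 and 62.6 CPM in the Mpo gate. It was past 1.5-fold in 1 whole gate, Siglech, with 35.2, 63.3 and 40.5 CPM on 112, 39 and 34 UMIs (IR over Control 1.80, 1.22 to 2.61, and IR+CBD over IR 0.64, 0.39 to 1.04). In cells of the Siglech gate alone IR/Control was 1.48 (0.76 to 2.70), on 54 and 14 UMIs. IR+CBD/Control was past 1.5-fold lower in cells of Klf1 alone (0.61, 0.51 to 0.75) and of Pf4 with Itga2b alone (0.49, 0.25 to 0.90, on 37 and 16 UMIs).

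Il3ra, the IL-3 receptor alpha chain of early myeloid cells and basophils, was highest of the 8 gates in Mcpt8 at 33.4, 47.5 and 42.7 CPM. The Mpo gate had 27.1, 34.8 and 34.9 CPM and the Cd34 with Adgrl4 gate 25.7, 33.7 and 34.4 CPM. In these 3 gates both irradiated libraries were above Control, with IR/Control ratios of 1.42 (1.29 to 1.56), 1.29 (1.22 to 1.35) and 1.31 (1.24 to 1.39), short of the limit. In cells of 1 of these gates alone the ratios were 0.95 (0.54 to 1.69, on 29 and 25 UMIs), 1.33 (1.19 to 1.49) and 1.53 (1.22 to 1.92). Over all cells Il3ra was at 20.6, 21.2 and 21.7 CPM, so the difference within gates did not appear in the whole library. In the Klf1 gate it was at 5.05, 5.57 and 4.26 CPM. Il5ra, the IL-5 receptor alpha chain, was at 57.1, 80.7 and 67.5 CPM in cells with 2 or more UMIs of Epx, the eosinophil peroxidase, which numbered 60, 46 and 43 (78.3%, 95.7% and 79.1% of them also in 1 of the 8 gates). Il3ra was at 51.0, 55.6 and 59.3 CPM in the same Epx cells, on 50, 42 and 29 UMIs. In the 8 whole gates Il5ra was at most at 5.16 CPM, in the Cd79a gate of Control, where B cells are also known to use it, and it was at 8.67, 3.74 and 6.99 CPM in the Cd79a cells with a UMI of Ighd, the IgD heavy chain of mature B cells. It was past 1.5-fold higher in IR in the Mpo gate (0.79, 1.21 and 1.00 CPM) and in the Cd34 with Adgrl4 gate (0.73, 1.16 and 1.04 CPM), on 58 to 114 UMIs per library. Those UMIs lay mostly in cells shared with other gates: cells of the Mpo gate alone held 10, 6 and 8 and cells of the Cd34 with Adgrl4 gate alone 1, 1 and 0, too few to compare. In cells of the Cd79a gate alone Il5ra was at 7.91, 4.96 and 6.17 CPM, past 1.5-fold lower in IR (0.63, 0.49 to 0.81). In the Siglech gate Il5ra had 0 UMIs in each library, with upper limits of 1.16, 5.99 and 4.40 CPM.

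Il7r, needed by developing B and T cells, was lower in IR than in Control in all 7 gates with enough UMIs, with ratios of 0.41 to 0.89. The Cd79a gate of B cells had 164.5, 132.7 and 159.3 CPM, an IR/Control ratio of 0.81 (0.78 to 0.84) and an IR+CBD/IR ratio of 1.20 (1.15 to 1.252). Its cells without a Klf1 UMI had 173, 161.5 and 181.4 CPM, with ratios of 0.93 (0.90 to 0.97) and 1.12 (1.08 to 1.17). In its cells in no other gate the ratios were 0.85 (0.81 to 0.88) and 1.205 (1.15 to 1.26). The Siglech gate had 140.4, 77.9 and 157.4 CPM, with ratios of 0.55 (0.40 to 0.75) and 2.02 (1.44 to 2.87), on 447, 48 and 132 UMIs. In both whole gates IR+CBD stood near Control and IR stood apart, for Cd79a by less in the cells without Klf1. In the Mcpt8 gate IR+CBD also stood near Control, at 4.56, 3.81 and 4.62 CPM. In the Cd34 with Adgrl4, Mpo and Retnlg gates IR+CBD stood near IR. The Cd34 with Adgrl4 gate had 11.2, 4.60 and 4.65 CPM, and its cells in no other gate 34.2, 13.1 and 14.1 CPM. The Mpo gate had 5.28, 3.22 and 3.44 CPM and the Retnlg gate 10.9, 7.75 and 6.85 CPM. In these 3 whole gates IR+CBD was past 1.5-fold lower than Control. In cells of the Mpo gate alone this was not found, with an IR+CBD/Control ratio of 1.05 (0.60 to 1.85) on 26, 15 and 30 UMIs. Cells of the Retnlg gate alone held 10, 4 and 9 Il7r UMIs, too few to compare. In the Cd79a gate the cells with a Vpreb1 UMI, 30.0%, 27.9% and 17.1% of the gate, had 159.1, 117.0 and 138.1 CPM, and the cells without it had 169.2, 144.8 and 169.8 CPM. Cells of the Cd79a gate with Ighd had 160.8, 136.9 and 166.4 CPM. IR was the lowest library in each of these divisions. Over all cells, by contrast, Il7r was at 35.8, 25.6 and 27.4 CPM, with IR+CBD near IR. An Il7r UMI was found in 54.9%, 49.9% and 48.1% of Cd79a-gate cells and in 31.1%, 28.6% and 30.9% after thinning to 2000 UMIs. In the Klf1 gate of erythroid cells, at median depths of 39670.5, 42567 and 40039 UMIs, it was found in 5.97%, 4.70% and 3.98%, and in 0.853%, 0.208% and 0.255% after thinning. T cells, gated on Cd3e with Cd3d (1 UMI each; 104, 49 and 49 cells), had Il7r at 155.0, 87.8 and 29.6 CPM on 137, 45 and 14 UMIs.

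Epor, the erythropoietin receptor that erythroid progenitors need to survive, was at 73.0, 84.4 and 83.1 CPM in the Klf1 gate, an IR/Control ratio of 1.16 (1.10 to 1.22). This gate held 5.49%, 14.0% and 11.5% of cells and 12.5%, 31.3% and 27.7% of UMIs. The difference over all cells, 2.70-fold, was thus larger than that within erythroid cells. When each cell was counted in 1 class, Klf1 cells in none of the other gates but Mpo held 75.6%, 79.9% and 83.0% of Epor UMIs. Car1, a carbonic anhydrase of early erythroid cells, moved the other way in the same gate, at 3347, 1846 and 2425 CPM, while Gata1, the erythroid master factor, was at 108.2, 105.0 and 108.7 CPM. Epor was at 64.1, 79.7 and 81.3 CPM in Klf1 cells with Gata2 and at 85.1, 94.2 and 85.9 CPM in those without. An Epor UMI was found in 82.6%, 87.9% and 87.5% of Klf1-gate cells and in 15.4%, 13.4% and 13.8% after thinning to 2000 UMIs, so the order of the libraries in the thinned shares did not follow the CPM. In the Cd79a gate the shares were 1.249%, 3.88% and 2.03%, and 0.357%, 0.868% and 0.345% after thinning.

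Outside the Klf1 gate Epor was past 1.5-fold higher in IR in the Mpo, Cd79a, Retnlg, Mcpt8 and Cd34 with Adgrl4 gates. Their ratios were 2.18 to 4.34, and erythroid RNA was counted in the same gates. The Cd79a gate had 3.80, 15.2 and 8.80 CPM and the Retnlg gate 2.73, 11.9 and 8.08 CPM. Of the Cd79a-gate cells 25, 119 and 65 were also in the Klf1 gate, and of the Retnlg-gate cells 12, 40 and 34. Car1 UMIs per Epor UMI in the Cd79a gate were 39.6, 21.5 and 35.1, close to the 45.8, 21.9 and 29.2 of the Klf1 gate of the same library. In cells without any Klf1 UMI, Epor in the Cd79a gate was at 0.82, 1.56 and 0.60 CPM, on 24, 44 and 13 UMIs, and in the Mpo gate at 0.41, 0.80 and 0.85 CPM. In the Retnlg gate it was at 0.24, 1.18 and 1.04 CPM on 3, 14 and 13 UMIs. In the 5 gates what remained without Klf1 was at most 1.58 CPM, yet IR stayed above Control, with ratios of 1.56 to 4.86 and intervals above 1 on 3 to 66 UMIs per library. Whether these UMIs came from free RNA of erythroid cells was not tested. In cells of the Cd34 with Adgrl4 gate alone Epor was at 1.93, 4.35 and 5.75 CPM, on 25, 18 and 24 UMIs. Car1 UMIs per Epor UMI were 10.4, 4.56 and 5 there, below the Klf1 gate. They were 24.6, 20.4 and 22.7 in cells of the Mpo gate alone. The Pf4 with Itga2b gate had Epor at 14.9, 20.1 and 18.65 CPM. Its cells without Klf1 had 9.98, 17.25 and 12.1 CPM, on 31, 24 and 22 UMIs. Car1 UMIs per Epor UMI were 0.68, 2.29 and 3.91 in them. The Siglech gate, with 17, 1 and 0 Epor UMIs, was too sparse to compare. Flt3 kept its difference in cells without Klf1, with IR/Control ratios of 0.42 in the Cd79a gate and 0.53 in the Cd34 with Adgrl4 gate.

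**Figure D4:**
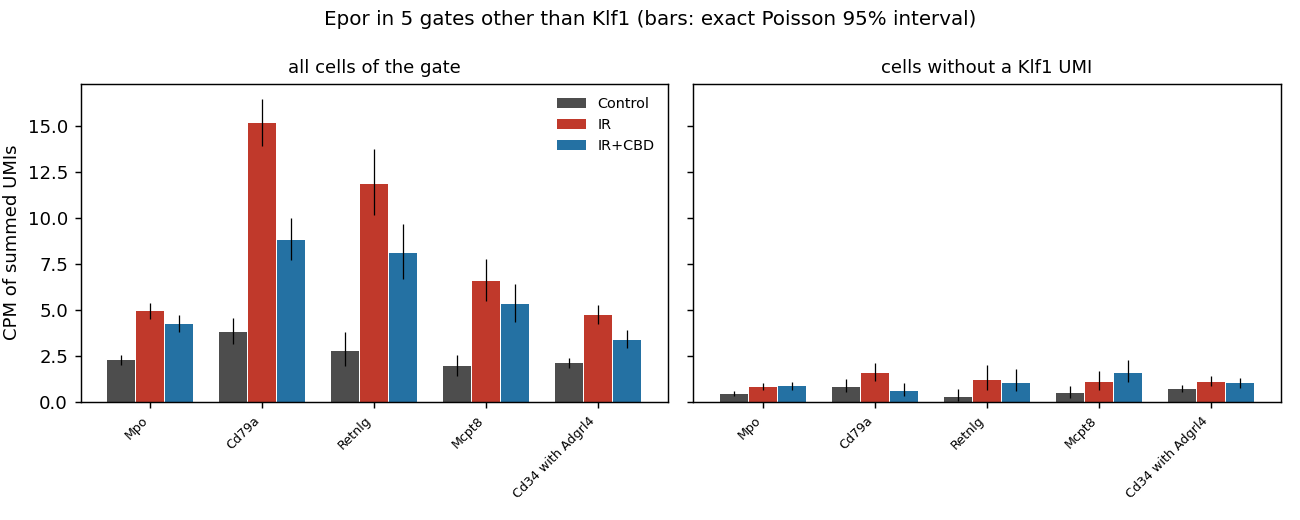
CPM of Epor in 5 gates other than Klf1, in all cells of the gate (left) and in the cells without a Klf1 UMI (right), for Control, IR and IR+CBD, with bars for the exact Poisson 95% interval. The Cd79a gate falls from 3.80, 15.2 and 8.80 CPM to 0.82, 1.56 and 0.60 CPM.

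Because the proportions of cells differed between the pools, each receptor was also summed at the Control proportions of 9 disjoint classes. These were the 8 gates, with each cell placed in 1 of them, and the cells outside. Cells of several gates were placed in a set order, Cd34 with Adgrl4 first and Mpo last. The make-up inside a class was not held fixed. Cells with Dntt were 28.5%, 11.1% and 10.6% of the Cd34 with Adgrl4 class. At that mix the ratio of IR over Control was 1.46 for Epor instead of 2.70, under the limit of 1.5, and 0.52 for Flt3 instead of 0.36, still past it. Il7r was at 0.66 instead of 0.72, which put it past the limit, and Il3ra at 1.29 instead of 1.03. Csf1r changed side, at 1.06 instead of 0.84, and so did Csf2ra, at 1.05 instead of 0.93. Kit stayed at 0.91 in both. For IR+CBD over IR the mix mattered less, with Flt3 at 1.19 both ways, Il7r at 1.23 instead of 1.07 and Csf2ra at 0.91 instead of 1.00.

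**Figure D5:**
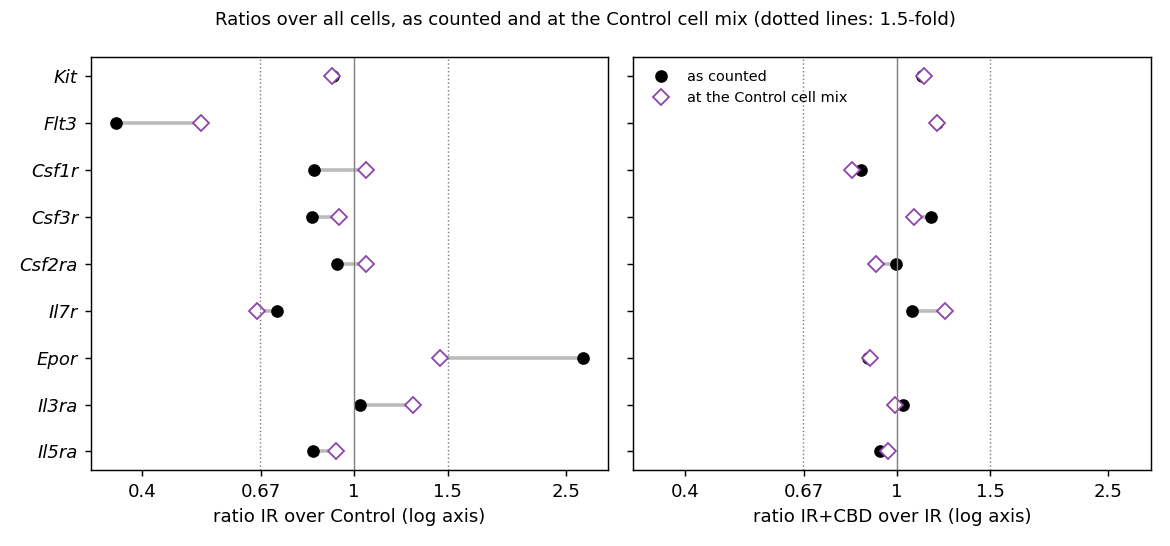
Ratio of CPM over all cells for IR over Control (left) and IR+CBD over IR (right) on log axes, as counted (filled circles) and at the Control cell mix (open diamonds), with dotted lines at 1.5-fold in either direction. Epor moves from 2.70 to 1.46 and Flt3 from 0.36 to 0.52 for IR over Control.

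The rest of the pathway was followed in 55 listed genes, of which 50 had enough UMIs for IR over Control. Of these, 3 were past 1.5-fold higher and 8 past 1.5-fold lower in IR, with a median ratio of 0.87, beside the 5.25% and 9.82% of all genes. Of the 15 other receptors and shared chains, 6 were lower and 1, Il9r, was higher on 19 and 32 UMIs. Csf2rb, the beta chain that serves Csf2ra, Il3ra and Il5ra, was at 44.8, 29.6 and 29.9 CPM, and its mouse relative Csf2rb2 at 5.37, 3.29 and 3.56 CPM. Both chains were thus lower over all cells in both irradiated libraries, while none of the 3 alpha chains was past 1.5-fold there. The beta chains were not followed by gate or at the Control cell mix. Il4ra, Il13ra1 and Il2rb, chains of the IL-4, IL-13 and IL-2 receptors, had ratios of 0.60, 0.58 and 0.49. Of the ligands, Kitl, which binds Kit, was at 0.56, 0.31 and 0.48 CPM on 110, 62 and 83 UMIs, and 5 of the 11 ligands had too few UMIs. Among the inhibitors, Socs2, itself induced by Stat5, was at 5.50, 9.70 and 6.36 CPM, and Socs3, which restrains the G-CSF receptor, at 14.5, 5.96 and 6.56 CPM. For IR+CBD over IR, 1 of 49 pathway genes was higher (Kitl, 1.56) and 2 were lower, Socs2 (0.66) among them. The shares of all genes were 2.82% and 2.85%. The IR+CBD values of Kitl and Socs2 lay between those of IR and Control. For IR+CBD over Control, 0 of 49 were higher and 9 lower, beside 4.01% and 8.44% of all genes.

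The genes whose levels were most like those of each receptor over the 24 sums of 8 gates in 3 libraries, which share libraries, depth and cells, were searched among 14246 genes (Pearson r of log2(CPM + 1), a description over gates without a test). They were Blnk (r = 0.990), a B cell adaptor, and Sdc4 (0.989) for Il7r, and Hp (0.979), haptoglobin of granulocytes, and Trem3 (0.977) for Csf3r. Ces2g (0.985) and Gm12999 (0.984) were most like Epor. Ckap4 (0.979) and Ncf4 (0.976), a subunit of the phagocyte oxidase, were most like Csf2ra, and Trub1 (0.977) and Bcs1l (0.974) were most like Kit. Pvr (0.974) and Fgd2 (0.958) were most like Flt3, and Ms4a6c (0.958) and Nrg2 (0.945) were most like Csf1r. Plac8 (0.965) was the second most alike for Il3ra. Il5ra, with the fewest UMIs, had the weakest likenesses, with Shank2 (0.926) and Gm33619 (0.847).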

How the data were processed

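The authors deposited 1 matrix of UMI counts per gene and called cell for each of the 3 libraries (Control, IR and IR+CBD, 1 pool of 3 mice each). The matrix headers name Cell Ranger 7.0.1 and the submitters' processing notes name Cell Ranger 4.0 with the GRCm39 build; no normalization had been applied. From the deposited counts, cells with at least 200 genes and at most 5% mitochondrial UMIs were kept, UMIs were summed over all cells or over gates, and CPM, ratios and percentages were computed (Python 3.11.15, numpy 2.4.6, scipy 1.17.1, pandas 2.3.3). Predicted doublets were kept; their removal (Scrublet in scanpy 1.11.5) was an alternative. Kept UMIs per library were 173466089 to 202361682. With 1 library per group there was no test: a gene was called past 1.5-fold with at least 50 UMIs in the 2 libraries, and the step was tested on simulated data. The simulation drew Poisson counts over all cells, without gates or spread between mice, so it bears on counting error only. The 9 receptors, the gates and the lists were chosen with earlier results of these data known. Named genes were the 9 receptors, pathway genes past 1.5-fold in all cells in IR over Control or IR+CBD over IR, and the 2 genes most like each receptor among those with at least 500 UMIs. Of these, 3 genes are not reported here. Dntt, F13a1, Vpreb1, Ighd, Gata2 and the cells without Klf1 were added after the values had been seen. Promoter sequences are from RefSeq (GRCm38.p6); gene coordinates of that build were not used with the counts.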

Additional observations from a re-analysis of the deposited data

How the results depend on the processing

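Of 93 counts recomputed under other settings, 72 stayed within 1.5 times the reported count and 21 did not. Of 189 receptor ratios over all cells, 125 stayed within their counting interval and 64 did not. The ratio of IR over Control kept its direction in 7 of 7 alternatives for Flt3 (0.29 to 0.52) and Epor (1.46 at the Control cell mix to 2.79), and in 4 of 7 for Csf2ra. Receptor-gate pairs past the limit for IR+CBD over IR (4 as reported) were 8 without predicted doublets, 9 with no UMI minimum, 2 at a minimum of 200 UMIs, 15 at a lower fold (a log2 limit of 0.32), 7 in cells thinned to 5000 UMIs and 9 with gate thresholds doubled. For IR over Control (18) they were 31, 9 and 10 at the lower fold, thinned and in cells of exactly 1 gate. For IR+CBD over Control (16) they were 27, 6 and 7 in the same order, and 10 in cells without a Klf1 UMI, an alternative added after seeing the data. Receptors past the limit over all cells for IR+CBD over Control (2) were 5 at the lower fold and 1 at the Control cell mix. Pathway genes numbered 24 for IR over Control (11), 6 for IR+CBD over IR (3) and 22 for IR+CBD over Control (9) at the lower fold, 6 for IR+CBD over IR with no UMI minimum, and 5 for IR+CBD over IR and 4 for IR+CBD over Control when every cell weighed the same. Thinning and a higher minimum leave fewer UMIs per pair, and a lower fold calls more by construction; otherwise the cause was not tested. No paired analysis was possible because each group is 1 library. Depth limited the Siglech, Pf4 with Itga2b, T cell and Epx gates, where most receptors had under 100 UMIs per library.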

Other observations

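Natural killer cells, gated on Nkg7 (3 or more UMIs) with Klrb1c (1), numbered 141, 55 and 74 in Control, IR and IR+CBD. Il7r in them was at 42.3, 13.8 and 10.3 CPM on 85, 12 and 10 UMIs, and Il3ra at 17.4, 47.2 and 24.7 CPM on 35, 41 and 24 UMIs. Cells outside the 8 gates (1587, 1104 and 1255) had Flt3 at 31.2, 11.3 and 17.3 CPM and Il7r at 42.4, 16.1 and 24.5 CPM, so IR was the lowest library for both receptors. Csf2ra in the same cells was at 97.1, 104.7 and 86.3 CPM.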
